A study of Homo sapiens with 8 samples.

Results

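Of the 82493 chromatin regions that were accessible in solvent-treated MCF10A cells, 1256 (1.52%) had no peak after 24 h and none after 72 h of TGFβ1. These closed regions are the subject here. They were chosen by presence or absence in the peak lists alone: the 4 deposited lists were merged into 126658 regions wherever peaks shared at least 1 bp, and a region was selected when it held a solvent peak and neither a 24 h nor a 72 h peak, whether or not it held a 6 h peak. A 6 h peak was present in 876 of them and absent in 380. Because absence at 24 and 72 h was the rule, it is a description and not a result.

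The data are ATAC-seq peak lists of MCF10A, an established line of immortalized, non-tumorigenic human mammary epithelial cells. All cells were wild type and grew in the same medium with horse serum, EGF, hydrocortisone, cholera toxin and insulin. They received 5 ng/ml TGFβ1 for 6, 24 or 72 h, or solvent (BSA in PBS), which the labels place at time 0 whereas the study's own legend gives 72 h of solvent. Each of the 4 conditions had 2 replicates, pooled by the authors into 1 list per condition, so there is no replicate error, no p-value is given, and the 95% intervals below cover counting error only. The solvent list held 86209 peaks, and the TGFβ1 lists held 107656 (6 h), 118433 (24 h) and 116720 (72 h). The epithelial label was checked against peaks within 3 kb of the transcription start site (TSS) of marker genes. All 11 epithelial markers, among them KRT5, CDH1 and EPCAM, had a solvent peak. Of 12 genes of other cell types, 5 had one (PTPRC, PECAM1, SYN1, PDGFRA and COL1A1), while the others, among them CD3E, MS4A1, CDH5, ALB and MYOD1, had none. Peak strength (the AUC described below) did not separate the groups. The largest AUC per gene was 1133 (PTPRC) to 3724 (COL1A1) in the 5 with a peak. In the epithelial markers it was 306 (TP63) to 5468 (ITGB4).

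Accessible chromatin marks promoters and enhancers, where transcription factors keep nucleosomes away from the DNA. TGFβ1 acts through SMAD proteins and drives these cells into an epithelial-mesenchymal transition (EMT), in which enhancers of the epithelial state can be shut down. Among the factors that bind enhancers of mammary epithelial cells, AP-1 (dimers of FOS and JUN proteins) opens chromatin broadly, C/EBP proteins act in differentiation and in the response to glucocorticoids, KLF proteins bind GC-rich elements of epithelial genes, and SNAIL and ZEB proteins repress epithelial genes through the E-box CACCTG.

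The sequences around the strongest closed summits are shown first, since motif matches near the summit are compared with those of kept regions below. Shown is the solvent summit with 100 bp on either side, for the 4 distal and 4 proximal closed regions of largest solvent signal. Passed over, because their sequence is not printed here, were stronger regions near TRIB1 (distal), JRK and FGFR1 (proximal). Proximal means that the solvent peak reached to 3 kb or less from a TSS or overlapped a first exon or 5′ UTR, and all other regions are called distal. Sequences are hg38, plus strand, 5′ to 3′. Capitals mark matches, on either strand, to the motifs of C/EBP (TTNNGCAA), the SNAIL and ZEB E-box (CACCTG), KLF (GGGNGNGGC) and AP-1 (TGANTCA).
Distal, EVA1C intron, chr21:32455661-32455861: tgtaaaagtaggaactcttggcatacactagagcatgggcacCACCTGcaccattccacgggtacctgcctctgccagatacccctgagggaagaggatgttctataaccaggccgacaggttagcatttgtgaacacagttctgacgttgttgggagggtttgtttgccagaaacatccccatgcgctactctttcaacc
Distal, LINC02458 intron, chr12:89212379-89212579: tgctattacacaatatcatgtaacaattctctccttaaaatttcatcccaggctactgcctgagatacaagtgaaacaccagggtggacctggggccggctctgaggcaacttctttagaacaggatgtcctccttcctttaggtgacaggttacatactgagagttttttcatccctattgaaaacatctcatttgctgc
Distal, intergenic near SP3, chr2:173828300-173828500: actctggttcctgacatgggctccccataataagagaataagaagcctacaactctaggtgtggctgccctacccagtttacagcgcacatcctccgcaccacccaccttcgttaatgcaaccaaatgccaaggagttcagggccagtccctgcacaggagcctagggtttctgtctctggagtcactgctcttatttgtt
Distal, intergenic near KRT24, chr17:40696561-40696761: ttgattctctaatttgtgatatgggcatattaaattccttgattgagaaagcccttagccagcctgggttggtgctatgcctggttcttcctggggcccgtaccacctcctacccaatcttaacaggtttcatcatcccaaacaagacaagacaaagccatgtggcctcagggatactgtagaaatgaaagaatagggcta
Proximal, intergenic downstream of FOS, chr14:75283664-75283864: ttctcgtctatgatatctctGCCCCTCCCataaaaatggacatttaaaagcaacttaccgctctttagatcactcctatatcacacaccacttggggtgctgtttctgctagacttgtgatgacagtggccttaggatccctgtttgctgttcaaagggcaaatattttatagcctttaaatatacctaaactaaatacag
Proximal, intergenic near GLYCAM1, chr12:54611768-54611968: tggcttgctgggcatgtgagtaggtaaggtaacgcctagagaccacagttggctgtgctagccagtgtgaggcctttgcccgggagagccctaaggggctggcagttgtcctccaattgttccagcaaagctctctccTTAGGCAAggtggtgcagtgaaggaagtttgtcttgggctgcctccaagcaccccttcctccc
Proximal, RITA1 intron, chr12:113189518-113189718: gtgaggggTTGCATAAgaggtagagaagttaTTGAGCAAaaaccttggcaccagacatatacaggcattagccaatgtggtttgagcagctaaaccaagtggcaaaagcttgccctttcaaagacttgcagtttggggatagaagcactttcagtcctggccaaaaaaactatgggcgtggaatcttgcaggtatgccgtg
Proximal, intron of ENSG00000223356, chr1:156712764-156712964: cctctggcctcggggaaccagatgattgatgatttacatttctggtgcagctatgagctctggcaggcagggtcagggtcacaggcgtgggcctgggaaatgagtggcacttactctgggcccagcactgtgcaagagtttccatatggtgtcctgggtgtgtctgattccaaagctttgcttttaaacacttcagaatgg

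Of these 8 windows, 4 held a match to 1 of the motifs in capitals, and no window held AP-1. The EVA1C window held an E-box centred 55 bp before its summit, the FOS window a KLF match 76 bp before it, the GLYCAM1 window a C/EBP match 42 bp after it, and the RITA1 window C/EBP matches 88 and 65 bp before it. A further 6 windows of 61 bp show C/EBP matches near the summit, the motif with the largest difference above kept regions below. In all, 137 closed regions had one centred within 25 bp of the summit, and the 6 of largest solvent signal are printed, a choice made after the motif shares were known. The TENM2 window also held a KLF match. Each is named by the gene of its nearest TSS.
OR7E47P, chr12:52132867-52132927: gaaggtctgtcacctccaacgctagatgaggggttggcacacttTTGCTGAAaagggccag
OFCC1, chr6:9646518-9646578: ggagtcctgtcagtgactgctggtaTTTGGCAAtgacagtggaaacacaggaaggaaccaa
UBE2H, chr7:129864297-129864357: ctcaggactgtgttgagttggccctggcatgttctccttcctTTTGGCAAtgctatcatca
TGFBI, chr5:136034620-136034680: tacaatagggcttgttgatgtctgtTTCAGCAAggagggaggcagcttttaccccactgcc
TENM2, chr5:167827956-167828016: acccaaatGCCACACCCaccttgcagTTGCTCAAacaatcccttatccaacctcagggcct
GLCE, chr15:69224548-69224608: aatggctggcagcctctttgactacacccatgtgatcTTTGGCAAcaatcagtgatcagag

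The strength of a region was read from the deposited signal value of its strongest solvent peak. This is the area under the peak caller's significance curve (AUC), which has no unit, grows with depth and width, and was not scaled between lists. The authors kept peaks with an AUC of at least 200. Closed regions were weak in solvent, with a median AUC of 259 (quartiles 225 and 328) against 781 for the 79275 regions with a peak in all 4 lists, referred to here as kept regions. An AUC under 250 was found in 555 closed regions, under 300 in 842, under 400 in 1095 and under 1000 in 1252. The weakest had AUCs of 200.04, 200.06 and 200.06, and 262 lay under 220. Just outside the rule, 146 of the 1513 regions that lacked only the 72 h peak had a 24 h AUC under 220, and 44 of the 240 that lacked only the 24 h peak had a 72 h AUC under 220. Signal below the authors' limit is not in the lists, so absence of a peak does not mean absence of accessibility.

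The share of solvent regions that closed fell with every step of AUC up to 1024. It was 10.96% (9.67 to 12.4) below an AUC of 215, 7.71% (7.004 to 8.49) from 215 to 256, 4.83% (4.28 to 5.44) from 256 to 304, 1.83% (1.52 to 2.21) from 362 to 431 and 0.187% (0.102 to 0.345) from 724 to 861. Above an AUC of 1024 there were 3 closed regions. For this reason all comparisons with kept regions were made within strata of 0.25 log2 units of solvent AUC and weighted to the closed regions. These 13 strata held 59388 kept regions.

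**Figure D1:**
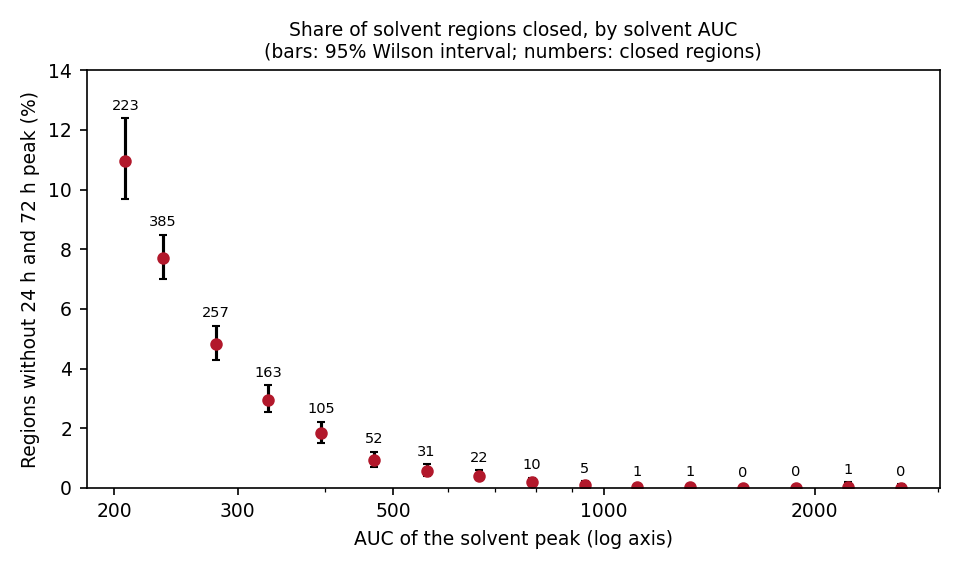
Share of solvent regions without a 24 h and a 72 h peak (y axis, percent) in strata of solvent AUC (x axis, log scale), with 95% Wilson intervals and the number of closed regions above each point. The share falls from 10.96% in the lowest stratum, which holds 223 closed regions, to 0.100% in the stratum that ends at 1024, which holds 5.

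The strongest closed region lay downstream of FOS, which encodes a subunit of AP-1. Its solvent peak (chr14:75282601-75284452, intergenic) was 1852 bp wide with an AUC of 2158, and at 6 h the AUC was 2951. The summit lay 3571 bp downstream of the nearest FOS TSS, with the peak edge within 3 kb. This region was the only closed one above 1413 in solvent. The nearest 24 h peak lay 895 bp away and the nearest 72 h peak 924 bp away. A further closed region, 20516 bp upstream of a different FOS TSS, had an AUC of 322 in solvent and 327 at 6 h. In all, 18 solvent regions were nearest to FOS. No gained region, meaning one with peaks at 24 and 72 h and none in solvent, was nearest to this gene.

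The strongest distal closed regions follow. An intergenic region of chromosome 8 (125578376 to 125579506), 145838 bp from TRIB1, the gene of a pseudokinase that targets C/EBPα for degradation, had an AUC of 1413 in solvent and 681 at 6 h. A region in an intron of EVA1C (chr21:32455554-32456031), which also lies inside CFAP298-TCP10L, had 1165 and 371, with a 24 h peak 495 bp away. A region in an intron of LINC02458 (chr12:89212298-89212725), 138692 bp from DUSP6, which encodes a phosphatase that inactivates ERK, had 1021 and 617. An intergenic region 71028 bp from the TSS of the transcription factor gene SP3 (chr2:173828302-173829037) had 960 and 335, and no 24 h or 72 h peak within 64042 bp. A region 7091 bp from the keratin gene KRT24 (chr17:40696576-40697070) had 897 and 696. All of these were lower at 6 h than in solvent, in contrast to the FOS region.

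The list of the 10 strongest was completed by a proximal region on chromosome 8 beside JRK (142683282 to 142684103) with an AUC of 992 in solvent and 887 at 6 h, a region in an intron of the semaphorin receptor gene PLXNA2 (chr1:208102075-208102464) with 882 and 606, a proximal region 1406 bp from GLYCAM1 (chr12:54611727-54612180) with 830 and 356, and a distal region 8169 bp from TSKU (chr11:76773915-76774354) with 828 and 658. The strongest proximal regions further included an exon of the fibroblast growth factor receptor gene FGFR1 on chromosome 8 (38429441 to 38430048, 66 bp from a TSS) with 823 in solvent and 454 at 6 h, an intron of RITA1, which encodes an inhibitor of Notch signalling (chr12:113189368-113189824), with 750 and 720, and an intron of the long non-coding RNA gene ENSG00000223356, 7048 bp from the retinoic acid-binding protein gene CRABP2 (chr1:156712406-156713050), with 700 and 449. The last of these had a 24 h peak 173 bp away.

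The 6 h list was not needed for membership. A 6 h peak was missing in 380 of 1256 closed regions (30.3%, 27.8 to 32.9). Among the 79376 regions with a solvent, a 24 h and a 72 h peak, it was missing in 101. This is 0.782% when weighted to the AUC of closed regions, a difference of 29.0 percentage points (26.6 to 31.4). Both sets were chosen by their 24 h and 72 h peaks, so the difference is a description. Weak closed regions lacked it more often: a 6 h peak was present in 57.8% (53.7 to 61.9) of those with a solvent AUC under 250, in 74.4% (70.6 to 77.9) from 250 to 400, and in 95.03% (90.5 to 97.5) from 400 upwards.

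Where a 6 h peak was present, its AUC had a median of 298 (quartiles 251 and 371), and the median log2 ratio of 6 h over solvent was 0.09 (quartiles -0.23 and 0.37). Kept regions of like solvent AUC had a median log2 ratio of 0.79, and regions that lacked only the 72 h peak had 0.36. The 6 h AUC was below the solvent AUC in 366 closed regions (41.8%), in 2.14% of kept regions of like AUC and in 17.9% of those absent only at 72 h. The ratio was below -1 in 13 closed regions and above 1 in 17. The scatter of solvent against 6 h AUC therefore straddles the line of equality. The lists were not scaled to each other, so the level of the ratio cannot be read alone. The order of the 3 groups was measured within the same pair of lists. All 3 groups were chosen by their 24 h and 72 h peaks, so this order is a description and not a result. Regions without a 6 h peak do not enter the ratio.

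**Figure D2:**
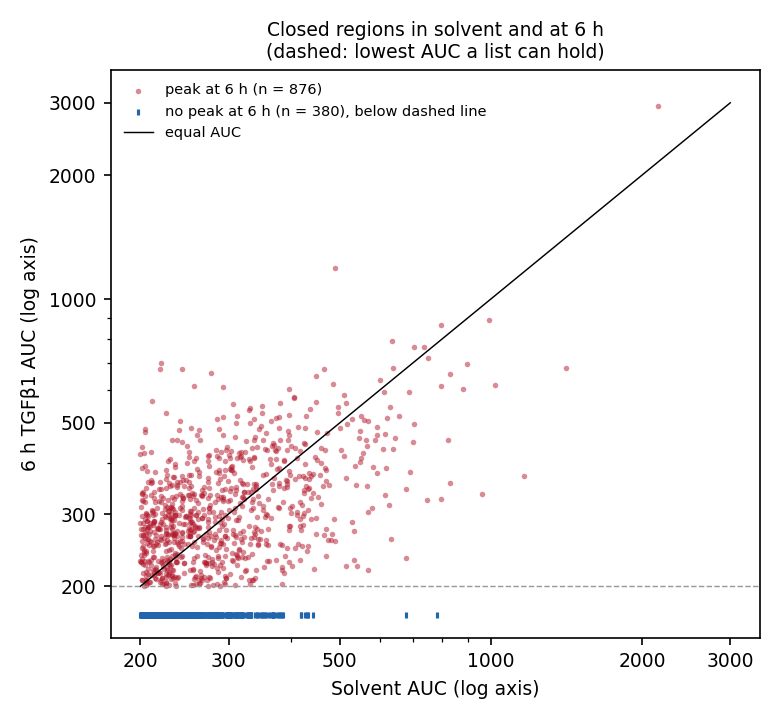
AUC of each closed region in solvent (x axis, log scale) and at 6 h of TGFβ1 (y axis, log scale); red points are the 876 regions with a 6 h peak, blue ticks under the dashed line at 200 the 380 without one, and the black line marks equal AUC. The point at the upper right is the FOS region, with 2158 in solvent and 2951 at 6 h.

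After FOS, the largest 6 h AUCs of closed regions belonged to an intergenic region 139283 bp from the homeobox gene IRX3 (chr16:54425923-54426737), with 489 in solvent and 1188 at 6 h, to the JRK region, to an intergenic region on chromosome 2 (129128982 to 129129532) with 796 and 862, and to an intron of POLR1A, the gene of the largest subunit of RNA polymerase I (chr2:86072425-86072757), with 636 and 791. Apart from the JRK region, which was lower at 6 h, these regions were stronger at 6 h than in solvent.

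Closed regions lay nearer to start sites than kept regions of like AUC. Of the 1256, 421 were proximal (33.5%, 30.96 to 36.2) against 27.9% of kept regions of like AUC, a difference of 5.53 percentage points (2.86 to 8.20). Closed peaks were wider, and with peak width matched as well, an alternative chosen after seeing the data, the difference was 3.60 points (1.00 to 6.21). Kept regions of all strengths were proximal in 40.2%, so that without weighting the difference was -6.65 points (-9.28 to -4.02), and for regions with an AUC of at least 400 it was -2.34 points (-9.04 to 4.35). The excess was largest from 1000 to 3000 bp around the TSS, where 17.7% (15.7 to 19.9) of closed and 13.5% of kept summits lay. Within 500 bp the shares were 8.60% (7.17 to 10.3) and 8.76%, and for peaks within 1 kb the difference was 1.57 points with an interval that held 0 (-0.51 to 3.66). Distances over 10000 bp were rarer, with 40.2% against 47.4% (difference -7.15 points, -9.94 to -4.35). Regions absent only at 72 h were proximal more often, in 38.3% of cases and in 40.1% when weighted to like AUC, a difference of -6.21 points (-9.83 to -2.59).

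**Figure D3:**
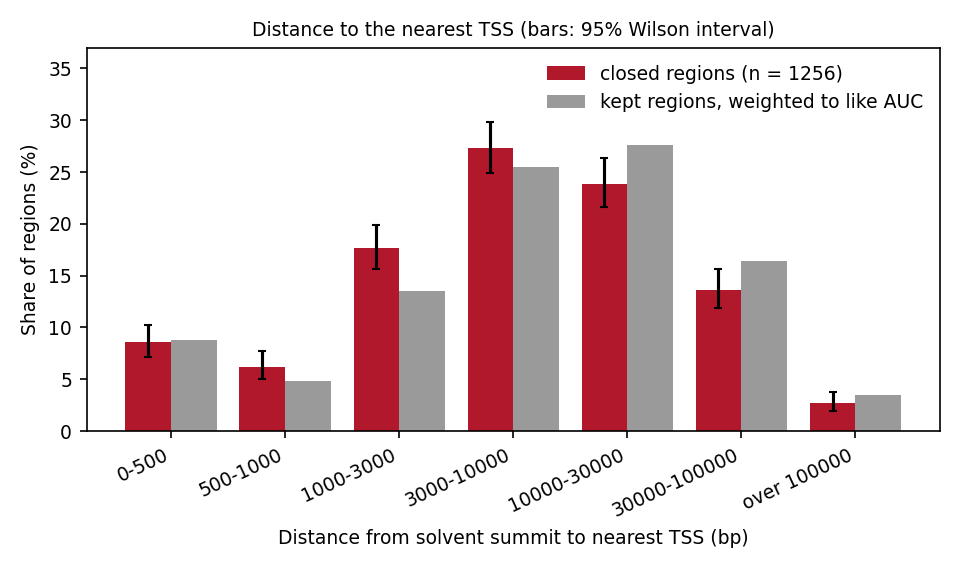
Share of regions (y axis, percent) by distance from the solvent summit to the nearest TSS (x axis, bp), for closed regions with 95% Wilson intervals and for kept regions weighted to the same AUC. From 1000 to 3000 bp closed regions have 17.7% and kept regions 13.5%, while from 10000 to 30000 bp they have 23.9% and 27.6%.

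Position in genes was otherwise alike. Summits lay in introns in 58.8% of closed and 59.1% of kept regions (difference -0.21 points, -2.99 to 2.58), in exons in 8.44% and 8.22%, and between genes in 32.7% of both. The summit was 3000 bp or less upstream of the nearest TSS in 204 closed regions and as often downstream of it. Over all chromosomes 1.52% of solvent regions closed. The share was lowest on chromosome X, with 17 of 1894 (0.90%, 0.56 to 1.43), followed by chromosome 19 with 28 of 2665 (1.05%, 0.73 to 1.51). The highest were chromosome 5 with 93 of 5092 (1.83%, 1.49 to 2.23) and chromosome 9 with 60 of 3295 (1.82%, 1.42 to 2.34). The intervals of both held 1.52%. These chromosome shares were not matched for AUC, and they are the extremes of 23 chromosomes. For chromosome X a matched comparison was made: 1.35% of closed and 2.95% of kept regions of like AUC lay there (-1.57 points, -2.26 to -0.88). The solvent peaks of closed regions were wider than those of kept regions at the same AUC (median 238 against 205 bp) and had a slightly lower -log10 p at the summit (6.16 against 6.25). GC content within 100 bp of the summit was a median of 47.8% against 46.8%, and the means differed by 0.97 points (0.47 to 1.47).

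Many closed regions stood beside another region that held a 24 h or 72 h peak, whether or not that region held a solvent peak. Another region with a 24 h peak lay within 500 bp of 295 closed regions (23.5%, 21.2 to 25.9) against 14.5% of kept regions of like AUC, a difference of 8.79 points (6.41 to 11.2). For 72 h peaks the numbers were 287 (22.9%) and 13.9%. These gaps were measured from the edges of merged regions. A kept region has taken in the 24 h and 72 h peaks that overlap it, which a closed region by rule cannot. The 2 sets are therefore not measured alike, and this was not corrected for. Gained regions were less often near: 24 closed regions (1.91%, 1.29 to 2.83) had one within 1000 bp against 4.35% of kept regions, a difference of -2.49 points (-3.28 to -1.69). Closed regions were mostly single, since 84 (6.69%) had another closed region within 10000 bp and 276 (22.0%) within 100000 bp. Whether peaks with a close neighbour were lost or split by the peak caller was not tested.

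The sequence at the summits was compared with that of kept regions of like AUC, at distal and proximal sites separately. For 24 motifs, the share of windows, each the summit with 100 bp on either side, with a match on either strand was compared. Intervals of the difference lay above 0 for 3 motifs and below 0 for 6 at distal sites, and for as many at proximal sites, the remaining 15 holding 0 in each case. At each kind of site, 2 of the 6 below 0 had no match in closed regions (NRF1 and CRE at distal sites, NRF1 and E2F at proximal ones), and nothing is read from these, since the share that a count of 0 allows was above that of kept regions. C/EBP, the SNAIL and ZEB E-box, AP-1, TEAD and CTCF were among the motifs off 0 at both, KLF and SMAD at distal sites and the MYC E-box and RUNX at proximal sites. The intervals were not adjusted for the number of motifs.

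The AP-1 motif TGANTCA was much rarer in closed regions. It was present in 97 of 835 distal closed regions (11.6%, 9.62 to 14.0) against 44.3% of kept regions of like AUC and 46.5% of all distal solvent regions, a difference of -32.8 points (-35.1 to -30.5). Proximal closed regions held it in 28 of 421 cases (6.65%, 4.64 to 9.44) against 32.0%, a difference of -25.3 points (-28.0 to -22.6). The core of the CTCF motif, a factor that anchors chromatin loops, was rarer too, in 1.32% against 8.38% of distal windows (difference -7.08 points, -7.98 to -6.19) and in 16 of 421 against 8.66% of proximal ones (-4.91 points, -6.88 to -2.95). The TEAD motif GGAATG was lower by a small margin, with 13.8% against 16.6% at distal (-2.77 points, -5.18 to -0.36) and 10.7% against 14.3% at proximal sites (-3.53 points, -6.62 to -0.43).

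The C/EBP motif TTNNGCAA showed the opposite difference. It was present in 284 of the 835 distal closed regions (34.0%, 30.9 to 37.3) against 14.1% of kept regions of like AUC and 16.0% of all distal solvent regions, 2.42 times as often and 19.9 points more (16.7 to 23.2). At proximal sites it was present in 112 of 421 (26.6%, 22.6 to 31.02) against 10.9%, a difference of 16.1 points (11.9 to 20.3). The SNAIL and ZEB E-box CACCTG was present in 241 distal closed regions (28.9%, 25.9 to 32.0) against 17.8% (19.5% of all distal solvent regions), a difference of 11.1 points (7.99 to 14.2), and in 130 proximal ones (30.9%, 26.7 to 35.4) against 20.6%, a difference of 10.3 points (5.73 to 14.8). At an AUC of at least 400 the proximal E-box difference was 0.51 points (-11.3 to 12.3, 45 closed regions). The KLF motif GGGNGNGGC was present in 114 distal closed regions (13.7%, 11.5 to 16.2) against 5.57% (7.91% of all), a difference of 8.11 points (5.76 to 10.5). At proximal sites the KLF difference of 3.30 points held 0 (-0.07 to 6.68).

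Other motifs differed less. The glucocorticoid receptor motif ACANNNTGT was present in 9.70% of distal closed and 8.06% of kept regions (difference 1.70 points, -0.35 to 3.75). The palindromic SMAD motif GTCTNGAC was present in 5 distal closed regions (0.60%, 0.26 to 1.39) against 1.32%, a difference of -0.73 points (-1.28 to -0.18). The differences at distal sites for RUNX, GATA, GRHL, p53 family, forkhead, NF-kB and NFY motifs were between -1.05 and 0.89 points, each with an interval that held 0. At proximal sites RUNX (TGTGGT) was present in 11.9% against 15.1% (-3.23 points, -6.44 to -0.01). At an AUC of at least 400 this difference was 1.06 points (-8.56 to 10.7, 45 closed regions). The MYC E-box CACGTG was present in 6.41% of proximal closed regions against 3.82% (2.52 points, 0.18 to 4.86) and in 3.23% against 2.73% at distal sites (0.51 points, -0.72 to 1.74). The CRE, NRF1 and E2F motifs had no match in the 835 distal closed regions, which allows a share of up to 0.359%. The KLF letters can overlap the GC box GGGCGG, which was present in 5.99% of distal closed regions against 4.99% (1.00 points, -0.64 to 2.64).

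**Figure D4:**
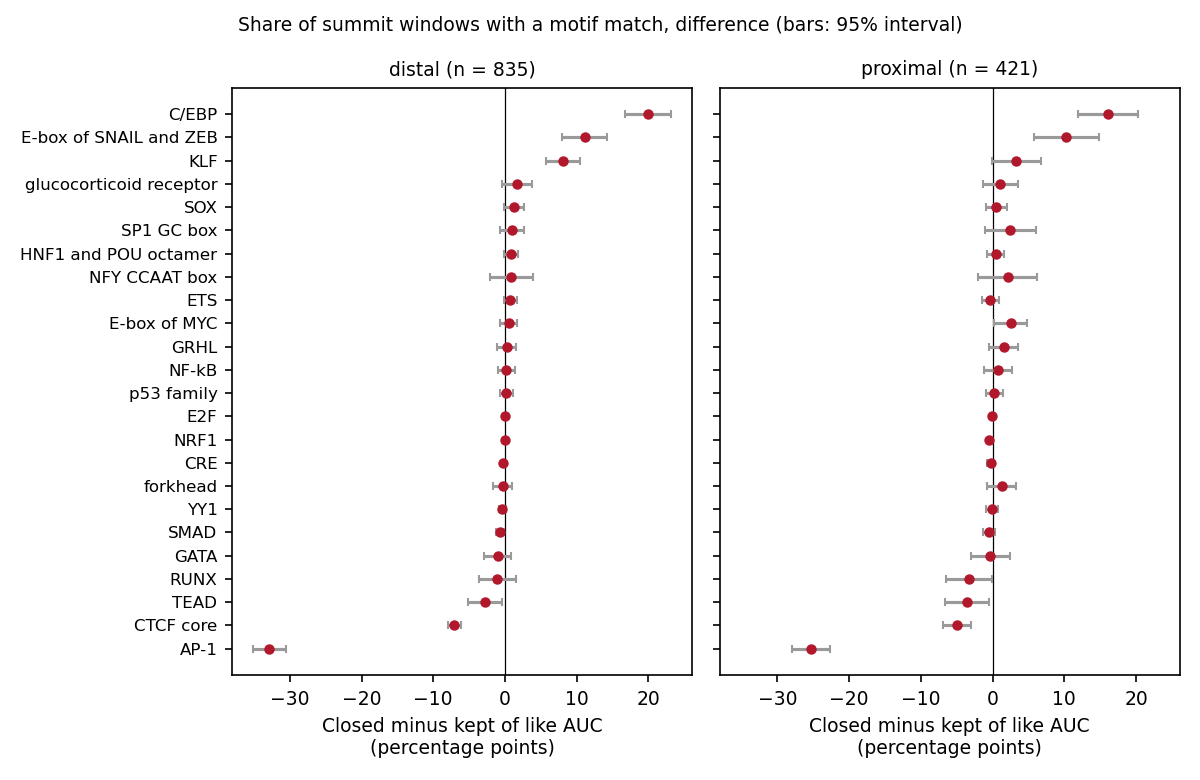
Difference in the share of summit windows (100 bp to either side) with a match, closed minus kept regions of like AUC (x axis, percentage points, with 95% intervals), for 24 motifs (y axis) at distal (left, 835 closed regions) and proximal sites (right, 421). C/EBP is highest with 19.9 and 16.1 points and AP-1 lowest with -32.8 and -25.3 points.

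The C/EBP difference was concentrated at the summit. Within 50 bp of it, 18.2% of closed regions (16.1 to 20.4) had a match against 6.07% of kept regions of like AUC, from 50 to 100 bp 16.1% (14.2 to 18.2) against 7.91%, and from 300 to 400 bp 9.95% (8.42 to 11.7) against 11.3%. KLF matches within 50 bp were present in 9.32% (7.83 to 11.1) against 4.62%, and E-boxes in 18.9% (16.8 to 21.1) against 11.3%. The E-box excess did not fall to 0 away from the summit, with 22.4% (20.2 to 24.8) against 17.5% from 300 to 400 bp. AP-1 matches were present within 50 bp of the summit in 6.21% (5.00 to 7.68) against 33.6%, and from 300 to 400 bp in 6.61% (5.36 to 8.12) against 6.396%.

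**Figure D5:**
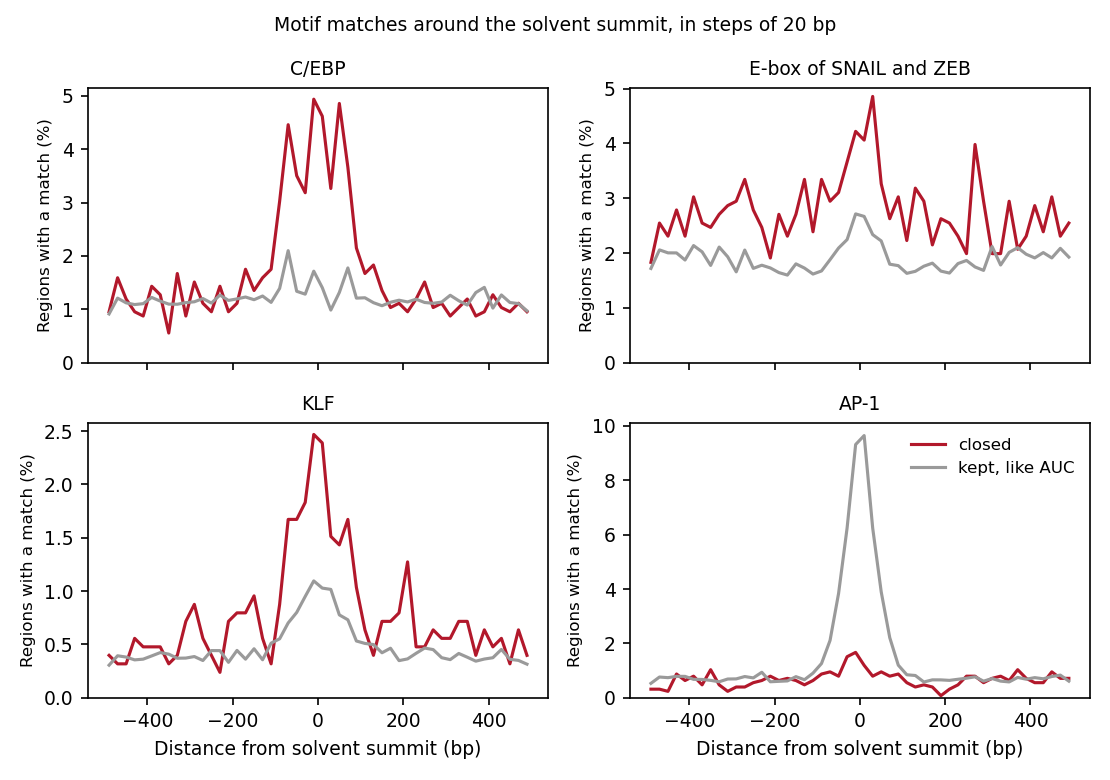
Share of regions with a match centred in each step of 20 bp (y axis, percent) by distance from the solvent summit (x axis, bp), for closed regions (red) and kept regions weighted to the same AUC (grey), in 4 panels for C/EBP, the E-box CACCTG, KLF and AP-1. Within 50 bp of the summit, C/EBP matches are in 18.2% of closed and 6.07% of kept regions, and AP-1 matches in 6.21% and 33.6%.

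The letters inside the C/EBP and E-box motifs were compared next, a step added after the shares were known. Among the forms of TTNNGCAA, TTGTGCAA was the commonest in closed regions (77 regions, 6.13%, against 1.49% of kept regions of like AUC, 4.12 times as often). TTTTGCAA was present in 53 (3.07 times) and TTAAGCAA in 46 (3.14 times). The rarer form TTTCGCAA was present in 13 (5.86 times) and the palindrome TTGCGCAA in 4 (4.01 times). At the other end, TTCAGCAA was present in 21 (1.36 times) and TTCGGCAA in 1 (0.98 times). Among the E-box forms CANNTG, the highest ratio was that of the SNAIL and ZEB form CACCTG, with 29.5% against 18.6% (1.59 times), followed by CAATTG with 4.14% (1.43 times) and CACGTG with 4.30% (1.42 times). The remaining forms were present between 0.72 (CATATG) and 1.11 times (CAACTG) as often as in kept regions.

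Without reference to any motif, all words of 8 letters were ranked by the difference between observed and weighted counts relative to the square root of the latter plus 1. Of the 20 highest, 8 held GCAA, which ends the C/EBP motif, 3 held CACCTG and 2 held CACACC. The first was TTGCACAA, which is TTGTGCAA on the other strand. Next came TTGTGAAA (74 regions, 5.89% against 1.71%) and TGTTGCAA (50, 3.98% against 0.97%). GCACCTGC (48, 3.82% against 1.16%) and AGGTGTGG (58, 4.62% against 1.64%) followed at ranks 6 and 8. Of the 20 lowest words, 8 held a full TGANTCA, led by ATGACTCA with 16 closed regions (1.27%) against 12.5% of kept regions.

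Pairs of C/EBP, the E-box and KLF were more frequent in 1 window than in kept regions, as was each motif alone. C/EBP was present in 31.5% against 13.2%, the E-box in 29.5% against 18.6% and KLF in 13.9% against 7.08%. Whether pairs met more often than these single shares give was not tested. Both C/EBP and the E-box were present in 99 closed regions (7.88%, 6.52 to 9.50) against 1.79% of kept regions of like AUC, the E-box and KLF in 61 (4.86%) against 1.41%, and C/EBP and KLF in 32 (2.55%) against 0.59%. At least 1 of the 3 was present in 763 closed regions (60.7%, 58.0 to 63.4) against 35.1%. None of the 3 and no AP-1 match was found in 443 (35.3%) against 37.0%. C/EBP together with AP-1 was present in 42 closed regions (3.34%) and 5.22% of kept regions. In windows without an AP-1 match, a comparison added after the data were seen, the distal C/EBP difference was 19.0 points (15.6 to 22.5), the E-box difference 10.3 points (7.03 to 13.7) and the KLF difference 7.30 points (4.73 to 9.87).

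Regions that closed by 24 h were compared with the 1513 that had peaks until 24 h and lacked only the 72 h peak, weighted to the same AUC. At distal sites C/EBP was more frequent in regions closed by 24 h (34.0% against 25.5%, difference 7.95 points, 3.63 to 12.3), and at proximal sites too (9.48 points, 4.25 to 14.7). AP-1 was less frequent at distal (11.6% against 15.3%, -4.13 points, -7.29 to -0.97) and proximal sites (-4.82 points, -8.36 to -1.28). CTCF was less frequent at distal sites (-3.34 points, -4.98 to -1.69), while SOX (2.73 points, 1.06 to 4.41), RUNX (3.43 points, 0.07 to 6.78) and glucocorticoid receptor motifs (2.73 points, 0.04 to 5.42) were more frequent there. The E-box differed at proximal (8.68 points, 3.13 to 14.2) and not clearly at distal sites (1.45 points, -2.84 to 5.73), and the KLF motif not clearly at distal (-1.15 points, -4.49 to 2.18) or proximal sites (-1.87 points, -6.37 to 2.64). Among closed regions themselves, C/EBP was present in 31.5% of those with and 31.6% of those without a 6 h peak (difference within AUC strata -1.79 points, -7.55 to 3.97). All 24 motifs were compared in this way, without adjustment for their number. The E-box was more frequent where the 6 h peak was already missing (33.4% against 27.9%, -7.76 points for with minus without, -13.5 to -2.04). RUNX was too (18.2% against 13.6%, -4.83 points, -9.50 to -0.16). GATA was more frequent where the 6 h peak was present (9.25% against 6.32%, 3.95 points, 0.66 to 7.23). The intervals of the other motifs did not lie off 0.

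Genes were assigned by the nearest protein-coding TSS. The closed regions fell to 1112 genes, of which 991 had 1 closed region, 101 had 2, 17 had 3 and 3 had 4. In 27 genes the only solvent region closed. A region gained at 24 and 72 h was also assigned to 815 of the 1112 genes (73.3%), a share that was not compared with that of other genes. Summits of 845 closed regions lay inside a gene, and 902 genes hosted at least 1.

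The host with the most closed regions was GRK6, which encodes a kinase that desensitizes G protein-coupled receptors. It held 4 closed regions among 7 solvent regions, with AUCs of 240, 210, 361 and 206, all proximal, none with a 6 h peak, and no gained region. LINC02822 followed with 3 closed of 5 solvent regions (466, 203 and 205). In the retinoblastoma gene RB1, which encodes a brake on the cell cycle, 3 of 11 closed (206, 217 and 399), all with a 6 h peak. In DLG5, which encodes a scaffold protein of cell junctions, 3 of 20 closed (383, 288 and 291), and their 6 h AUCs of 219, 200.6 and 229 were lower. In PLXNA2, 3 of 22 closed (331, 882 and 225). BCAR3, which encodes an adaptor protein that binds the focal adhesion protein p130Cas, had 3 of 44 (240, 226 and 300), with 12 gained regions in its body. LINC-PINT, a long non-coding RNA gene induced by p53, had 3 of 44 (232, 679 and 214), and in the strongest the 6 h AUC was 235. AGBL4 had 3 of 27 with 16 gained regions, and the long non-coding RNA genes ENSG00000234261 and ENSG00000248752 had 3 of 21 and 3 of 27. RB1, DLG5 and GRK6 lie on chromosomes 13, 10 and 5. Genes of many peaks can host several closed regions through their size alone, and the closed share is given with its denominator for that reason.

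Closed regions were then counted over 10 gene lists, beside the 1.52% of all solvent regions that closed. The shares below are not matched for AUC, and regions of 1 gene are not independent. In the list of epithelial junction and identity genes, 12 of 577 solvent regions closed (2.08%, 1.19 to 3.60), at 9 of 59 genes. The strongest lay at OVOL2, a repressor of EMT regulators, 2379 bp upstream of a TSS (638 in solvent and 680 at 6 h). PERP, a desmosome-associated p53 target, had 1 of 16 closed (439 and 371, 93336 bp from its TSS), and the plakoglobin gene JUP 1 of 7 (399 and 374). The polarity gene PARD3 had 3 of 49 closed, with 335, 304 and 292 in solvent, and 208 and 468 at 6 h for the 2 that had a 6 h peak. The strongest was intergenic, 459590 bp from the PARD3 TSS, and the others lay in PARD3 introns. KRT5, named here as a marker and after its values were seen, had 1 of 5 closed, with an AUC of 225 at 2352 bp from its TSS, while the largest AUC within 3 kb of its TSS, 4136, belonged to a region that did not close. The epithelial adhesion genes CDH1 and EPCAM, also named after their values were seen, had no closed region.

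Among regions of mesenchymal and matrix genes, 5 of 538 closed (0.93%, 0.40 to 2.16). They included an intron of TGFBI, a TGFβ-induced matrix protein gene, with 551 and 410, and single regions near THBS1 (290 and 331) and in ADAM19 (256 and 615). COL4A2 had 2 of 15, with 250 and 205 and no 6 h peak. In the TGFβ and BMP list, 8 of 579 closed (1.38%, 0.70 to 2.70). TGFBR3, the gene of the co-receptor betaglycan, had 3 of 24 in its introns (307, 217 and 202 in solvent, 268, 252 and 322 at 6 h). BMP2 had 2 of 38 (378 and 334), the signal transducer gene SMAD3 1 of 27 (228) and the activin receptor gene ACVR2A 1 of 24 (205, 271681 bp from its TSS). Of the regions at EMT transcription factor genes, 9 of 483 closed (1.86%, 0.98 to 3.50). FOS had 2 of 18, as described above, and other AP-1 genes had 1 each, FOSL2 of 18 (332) and FOSB of 2 (262, 1077 bp from its TSS, no 6 h peak). RUNX2 had 1 of 18 (302).

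In the list of EGFR and ERK feedback genes, 10 of 499 closed (2.00%, 1.09 to 3.65). DUSP6 had 2 of 23, both in LINC02458 (1021 and 345). ERRFI1, a feedback inhibitor of EGFR, had 1 of 28, which lay 369 bp upstream of a TSS (305 and 384 at 6 h). PHLDA1 had 1 of 20 (303, 122296 bp from its TSS) and the ERK pathway inhibitor gene SPRED2 2 of 32 (272 and 250). In the list of glucocorticoid receptor and C/EBP genes, 8 of 263 closed (3.04%, 1.55 to 5.89). TXNIP had 2 of 9 (481 and 227). A region 12195 bp from CEBPA, which encodes C/EBPα, had an AUC of 426 in solvent and no 6 h peak, 1 of 6 regions of that gene. KLF9, a glucocorticoid-induced gene, had 1 of 16 (392 and 248 at 6 h). ERRFI1 is in both lists and is counted in both.

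At cell cycle and MYC genes, 11 of 285 closed (3.86%, 2.17 to 6.78). MYC had 4 of 71, between 212 and 429 and from 49107 to 544577 bp away, beside 30 gained regions. MKI67 had 2 of 16 (281 and 232), which lay 500423 and 854 bp from its TSS. MXD1, which encodes an antagonist of MYC, had 1 of 6 (249), and the cell cycle transcription factor gene E2F3 1 of 3 (243). RB1, described above as a host gene, had 2 of the 5 solvent regions nearest to its TSS. At interferon response genes, 3 of 135 closed (2.22%, 0.76 to 6.33), among them regions at IFIT2 (244 in solvent) and CIITA (240), both with a higher AUC at 6 h (284 and 506). No region of the 182 at cytokine and NF-kB genes closed, which allows up to 1.65%, and none of the 160 at cholesterol and fatty acid synthesis genes, which allows up to 1.88%. With non-coding genes included in the assignment, fewer regions fell to listed genes. The counts were 7 of 352 for the epithelial list (1.99%, 0.97 to 4.05) and 4 of 133 for the cell cycle list (3.01%, 1.18 to 7.48). Both intervals held 1.52%. For the glucocorticoid receptor and C/EBP list the count was 5 of 113 (4.42%, 1.90 to 9.94).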

How the data were processed

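ATAC-seq of MCF10A cells gave 8 libraries, 2 for each of 4 conditions. Per the labels and the study's methods, the authors trimmed reads with Trimmomatic 0.38, aligned them to GRCh38 (hg38) with Bowtie2 2.4.5, removed duplicates with Picard and mitochondrial and low-quality reads with SAMtools 1.4.1, and called peaks with Genrich 0.5 on both replicates together (versions from the submitters' processing notes). The deposited lists give for each peak a signal score (the AUC, at least 200) and a -log10 p value at the summit, and -log10 q values that were not used here. They hold no read counts, so depth and replicate spread are unknown.

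Lists were matched to conditions by the condition in the name of each list, merged where peaks shared at least 1 bp, and each region was represented by its solvent peak of largest AUC. Genes were from GENCODE 44 (251784 transcripts, 62062 genes, 19970 of them protein-coding, on 23 chromosomes), and 426 of 427 list symbols were found. Shares were compared within AUC strata of 0.25 log2 units by the Mantel-Haenszel difference with a 95% interval, and single shares have Wilson intervals. A count of 0 was given the limit of 3 counts. No p-value was computed. Motifs were searched on both strands within 100 bp of the solvent summit, and those of the p53 family, CTCF and NRF1 were searched with gaps. Python 3.11.15, numpy 2.4.6, pandas 2.3.3 and matplotlib 3.10.9 were used, and the comparison was tested on simulated data.

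The members and lists were chosen with earlier results of these data known. Named were the 10 closed regions of largest solvent AUC, the 6 distal and 6 proximal ones of largest AUC, the 5 of largest 6 h AUC, the 10 genes hosting most (12 genes tied at 3 closed regions, of which 9 were taken in alphabetical order), and up to 4 genes of each list. Some genes of the lists are not reported here. Motif forms, words of 8 letters, position profiles, 61 bp windows, the comparison for a missing 6 h peak, matching on peak width and the restriction to windows without AP-1 were added after the data were seen. Other alternatives varied the overlap rule, list length, minimum AUC, promoter definition, matching, window and gene assignment.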

Additional observations from a re-analysis of the deposited data

How the results depend on the processing

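No paired analysis was possible because each list pools both replicates of its condition, and for the same reason no replicate could be left out. The number of closed regions rested on the definition of a lost peak: 7048 when peaks had to overlap by 50% of both, 7524 with lists of equal length, 380 without a 6 h peak and 161 with an AUC of at least 400, against 1256 in the report and 1285 without merging. The proximal share difference was 1.57 points within 1 kb, 3.60 with peak width matched too and 10.7 with lists of equal length, and it reversed to -6.65 without matching on AUC and to -2.34 at an AUC of at least 400. The GC difference reversed to -3.64 points without matching. Without matching, AP-1 differed by -36.3 (distal) and -17.6 (proximal) points, CTCF by -5.13 and -2.08, and proximal KLF by -9.38. At an AUC of at least 400, AP-1 differed by -38.9 (distal) and -30.1 (proximal), proximal C/EBP by 33.5, and the E-box by 22.8 (distal) and 0.51 (proximal). Over whole peaks, distal C/EBP differed by 23.5 and the distal E-box by 15.9. Distal CTCF differed by -4.93 when peak width was matched too, and CTCF by -12.5 (distal) and -7.88 (proximal) in windows without AP-1, both chosen after seeing the data. With the nearest TSS of any gene, closed regions numbered 7 for epithelial, 2 for mesenchymal, 5 for TGFβ and BMP, 5 for EMT factor, 3 for EGFR and ERK, 5 for glucocorticoid receptor and C/EBP, and 4 for cell cycle and MYC genes. Of 228 alternatives for 38 results of other motifs, 192 lay inside the 95% interval of the main value, 35 lay outside it, and proximal RUNX reversed from -3.23 to 1.06 points at an AUC of at least 400. The causes were not tested. Peaks below the authors' AUC limit and the depth of the lists could not be examined.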
